A study of Rattus norvegicus with 8 samples.

Results

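Genes that mark the glia of the brain and spinal cord were examined in injured L5 dorsal root ganglia (DRG), the ganglia that hold the cell bodies of the sensory neurons of the L5 spinal nerve. The set held 7 genes, the astrocyte genes Slc1a2 and Aqp4, the oligodendrocyte myelin genes Mog, Mobp and Opalin, and the oligodendrocyte lineage factors Olig1 and Olig2. Members were the probe sets whose only gene symbol in the annotation of the array was one of these names, with the brightest probe set taken for a gene. Of the 7 genes, 6 had a probe set, 1 each, of 28826 probe sets and 14497 named genes in all. Olig2 had no probe set of its own in the annotation used here and was not analysed.

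All 8 samples were ipsilateral L5 DRG of adult male Wistar rats, taken 14 days after L5 spinal nerve transection. The 4 HDACI samples came from rats given MS-275, an inhibitor of class I histone deacetylases (HDACs), at 30 nmol per day through an intrathecal catheter and osmotic pump. The 4 vehicle samples came from rats given the solvent, dimethyl sulfoxide in saline, by the same route, so that every animal carried the injury, the catheter and the pump. RNA of each sample was run on an array of its own (Affymetrix Rat Gene 1.0 ST), and values are RMA values on the log2 scale. Replicate numbers named different samples, and p-values measure the spread between these samples.

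Astrocytes and oligodendrocytes are glia of the central nervous system. In a ganglion their places are taken by satellite glia, which wrap the neuronal cell bodies, and by Schwann cells, which make the myelin of peripheral axons. The dorsal root carries Schwann cell myelin as far as a transition zone near the spinal cord, where astrocytes and oligodendrocytes take over. Genes restricted to central glia can therefore mark root or cord tissue attached to a dissected ganglion, one array at a time. Whether each member was restricted to central glia in these samples, which also varied in skeletal muscle genes, was not tested. Some myelin genes, such as Mbp and Mag, are used by both kinds of myelinating cell and cannot serve this purpose.

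The 6 genes gave dim signals in the ganglion. Their means over the 8 arrays lay at or above only 16.7% (Opalin) to 37.7% (Aqp4) of all probe sets. Olfactory receptor genes, which belong to the nasal epithelium, had 1126 probe sets with a median of 5.43 (log2). Of these, 71.1% lay at or below the mean of Opalin, 80.3% at or below that of Olig1 and 90.1% at or below that of Mobp. The shares were 94.9% for Slc1a2, 96.2% for Mog and 96.4% for Aqp4. For signals this dim, a lack of difference between arrays cannot be read as a lack of central glia. The value table holds no detection call, and probe sets differ in how strongly they bind, so no order between genes was read from these values. Some genes of ganglion cells gave bright signals. The neuronal intermediate filament gene Prph measured 12.98 in vehicle replicate 3 and 12.86 in HDACI replicate 1, and the peripheral myelin gene Pmp22 measured 13.99 and 14.07 in the same arrays. The sensory neuron gene Scn11a was dim in these arrays, at 7.21 and 7.22, but measured 8.66 in vehicle replicate 4. All were named after their values had been seen.

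Slc1a2 encodes the main glutamate transporter of astrocytes. It measured 7.09, 7.06, 7.15 and 6.88 in HDACI replicates 1 to 4 and 7.22, 7.19, 7.66 and 7.27 in vehicle replicates 1 to 4 (log2). Vehicle replicate 3 was the highest array and HDACI replicate 4 the lowest, and every HDACI array lay below every vehicle array. The gap between the groups was narrow, from 7.15 to 7.19. The means were 7.04 ± 0.11 in HDACI and 7.34 ± 0.22 in vehicle (SD, n = 4 each).

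Aqp4 encodes the water channel of astrocyte endfeet. Which cells gave its signal in these samples, which also varied in skeletal muscle genes, was not tested. Aqp4 measured 7.27, 7.35, 7.35 and 7.10 in HDACI replicates 1 to 4, and 7.43, 7.42, 7.88 and 7.44 in vehicle replicates 1 to 4. The arrays at both ends were those of Slc1a2, and the groups again did not overlap. Vehicle replicate 3 lay 0.44 above the next array, vehicle replicate 4. The means were 7.27 ± 0.12 in HDACI and 7.54 ± 0.22 in vehicle (SD, n = 4 each).

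Mobp encodes myelin-associated oligodendrocyte basic protein, a component of compact central myelin. It measured 6.79, 6.71, 6.71 and 6.69 in HDACI replicates 1 to 4, and 6.76, 6.61, 7.07 and 6.79 in vehicle replicates 1 to 4. Vehicle replicate 3 lay 0.28 above the next array, HDACI replicate 1, while the remaining vehicle arrays lay among or below those of HDACI. The groups overlapped, with means of 6.72 ± 0.04 in HDACI and 6.81 ± 0.19 in vehicle (SD, n = 4 each).

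Mog encodes myelin oligodendrocyte glycoprotein, found on the outer surface of central myelin. It measured 7.25, 7.41, 7.44 and 7.30 in HDACI replicates 1 to 4 and 7.38, 7.33, 7.48 and 7.38 in vehicle replicates 1 to 4. Vehicle replicate 3 was again the highest, but by only 0.04 over HDACI replicate 3. The groups overlapped, with means of 7.35 ± 0.09 and 7.39 ± 0.06 (SD, n = 4 each).

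Opalin encodes a membrane glycoprotein of oligodendrocytes. It measured 5.98, 6.06, 6.05 and 5.96 in HDACI replicates 1 to 4, and 5.89, 5.92, 5.99 and 5.94 in vehicle replicates 1 to 4. HDACI replicates 2 and 3 were the highest, and vehicle replicate 3 came next. This gene varied the least of the 6, with a range of 0.17 over all arrays.

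Olig1 encodes a basic helix-loop-helix transcription factor of the oligodendrocyte lineage. It measured 6.30, 6.37, 6.53 and 5.92 in HDACI replicates 1 to 4 and 6.19, 6.41, 6.42 and 6.39 in vehicle replicates 1 to 4. The highest and the lowest array both came from HDACI, replicate 3 and replicate 4, and the vehicle arrays lay between them. Olig1 had the widest spread within HDACI of the 6 genes (SD 0.26).

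**Figure D1:**
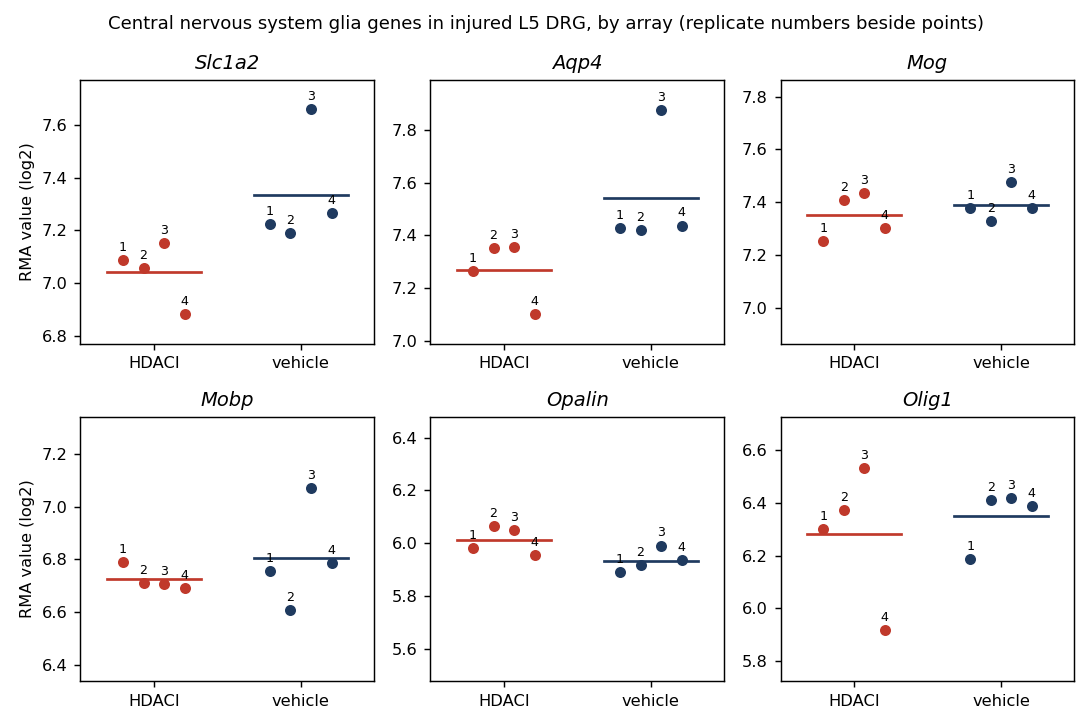
RMA values (log2) of the 6 measured genes are plotted for each array (red, HDACI; dark blue, vehicle), numbered by replicate, and bars give the group means of n = 4. All panels span the same range of 1 on the log2 scale. Vehicle replicate 3 lies above every other array for Slc1a2, Aqp4 and Mobp, and narrowly for Mog, but not for Opalin or Olig1.

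The main pattern was a single array. Vehicle replicate 3 was the highest of the 8 arrays for 4 of the 6 genes, while 9.72% of all probe sets were highest there. Relative to the mean of the other 7 arrays it lay 0.54 higher for Slc1a2, 0.54 for Aqp4 and 0.35 for Mobp (log2), that is 1.45-fold, 1.45-fold and 1.27-fold. The SDs of those 7 arrays were 0.13, 0.12 and 0.06. For Mog it lay 0.12 higher, for Olig1 0.12 and for Opalin 0.02, against SDs of 0.06, 0.20 and 0.07. Few probe sets were highest in vehicle replicate 3 by as much. A margin over the next array at least as large as that of Slc1a2 was found for 0.0971% of all probe sets, as large as that of Aqp4 for 0.0624% and as large as that of Mobp for 0.222%. The margin of Mog was reached by 5.09%. Vehicle replicate 3 was singled out after these values had been seen, and each share counts only probe sets highest in it. The shares thus describe the pattern and are no test of it. After cyclic loess, an alternative chosen after seeing the data, vehicle replicate 3 kept its place at the top for these 4 genes, with margins of 0.40 for Slc1a2, 0.41 for Aqp4, 0.28 for Mobp and 0.06 for Mog.

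At the other end, HDACI replicate 4 was the lowest array for Slc1a2, Aqp4 and Olig1, 3 of the 6 genes. Of all probe sets, 19.5% were lowest there. Its deviations from the mean of all arrays were -0.31, -0.30 and -0.40 for these genes (log2). The mean deviation over the 6 genes was -0.19 in HDACI replicate 4 and 0.25 in vehicle replicate 3, and between -0.06 and 0.04 in the other 6 arrays.

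**Figure D2:**
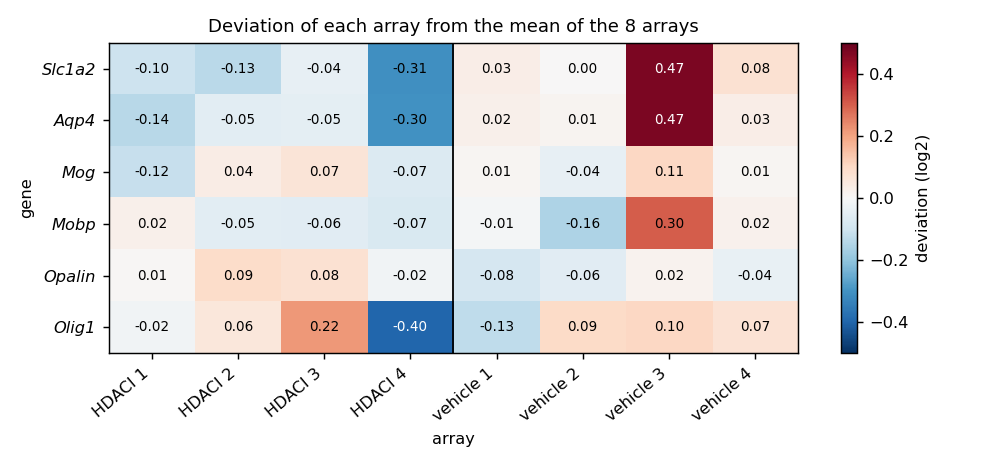
Each cell gives the deviation of 1 array (columns, HDACI left of the line) from the mean of the 8 arrays for 1 gene (rows), in log2 units. The column of vehicle replicate 3 stands out for Slc1a2 (0.47), Aqp4 (0.47) and Mobp (0.30), and that of HDACI replicate 4 for Slc1a2 (-0.31), Aqp4 (-0.30) and Olig1 (-0.40).

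HDACI and vehicle were compared next, to ask whether treatment went with the level of central glial genes. No gene of the set passed adjustment over all 28826 probe sets by limma (adjusted p = 1.0 for each of the 6). At an unadjusted p under 0.05, 2 of the 6 were lower in HDACI and 0 were higher, against 3.55% of all probe sets in either direction and 1.93% in the direction of these 2. At an unadjusted p under 0.01 there were 0 of the 6, against 0.555% of all probe sets. Slc1a2 differed by -0.29 ± 0.11 (log2, SE, limma), with a 95% confidence interval from -0.54 to -0.05. Aqp4 differed by -0.27 ± 0.11, with an interval from -0.52 to -0.02. These were also the 2 genes whose groups did not overlap, against 1.09% of all probe sets with HDACI below vehicle and 2.1% in either direction. In bulk tissue, fewer cells of a type and less RNA per cell cannot be told apart.

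The size of both differences depended on vehicle replicate 3. Without it Slc1a2 differed by -0.18 ± 0.07 (SE, 95% confidence interval -0.35 to -0.02) and Aqp4 by -0.16 ± 0.07 (-0.32 to 0.00), so that the unadjusted p of Aqp4 no longer lay under 0.05. The remaining 3 vehicle arrays still lay above all HDACI arrays for both genes, with means of 7.23 ± 0.04 for Slc1a2 and 7.43 ± 0.01 for Aqp4 (SD, n = 3). Without HDACI replicate 4 the differences were -0.24 for Slc1a2 (95% confidence interval -0.50 to 0.02) and -0.22 for Aqp4 (-0.48 to 0.05), and neither had an unadjusted p under 0.05. Without HDACI replicate 1 that of Aqp4 was also not under 0.05, with a difference of -0.27 (-0.56 to 0.02).

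For the other 4 genes the confidence interval over all 8 arrays of the difference spanned 0 and the groups overlapped. Mog differed by -0.04 (95% confidence interval -0.17 to 0.09), Mobp by -0.08 (-0.28 to 0.12) and Olig1 by -0.07 (-0.35 to 0.21). Opalin was the one gene with a higher mean in HDACI, by 0.08 (-0.03 to 0.18). Without vehicle replicate 3 the difference of Mobp was 0.01 and changed sign, and without HDACI replicate 4 that of Olig1 was 0.05.

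**Figure D3:**
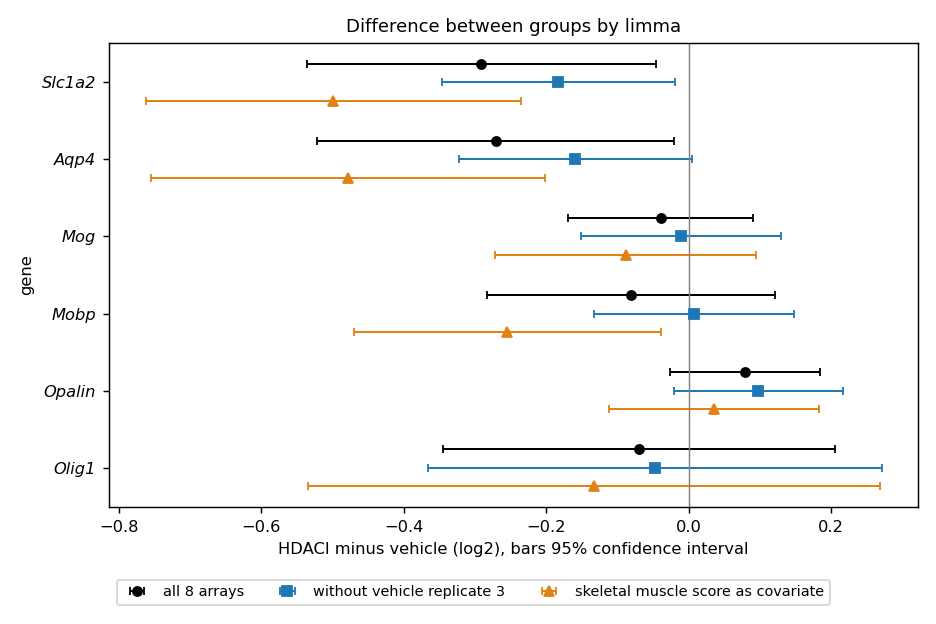
The difference HDACI minus vehicle (log2) by limma is given for each gene with its 95% confidence interval, for all 8 arrays (black circles), without vehicle replicate 3 (blue squares) and with the skeletal muscle score of each array as a covariate (orange triangles). Slc1a2 and Aqp4 lie below 0 in all 3 settings, at -0.29, -0.18 and -0.50 and at -0.27, -0.16 and -0.48, while Mobp moves from -0.08 to 0.01 without vehicle replicate 3.

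Skeletal muscle genes varied strongly between these arrays. The mean of 10 muscle genes lay 2.74, 1.54 and 0.69 above the mean of all arrays in vehicle replicates 1, 2 and 4 (log2) but at -1.16 in vehicle replicate 3, within the range of the HDACI arrays (-1.22 to -0.84). With this mean as a covariate, Slc1a2 differed by -0.50 ± 0.11, Aqp4 by -0.48 ± 0.12 and Mobp by -0.25 ± 0.09 (SE, limma, adjusted p = 1.0 for each). The interval of Mobp, -0.47 to -0.04, then no longer spanned 0. Without vehicle replicates 1 and 2, the arrays highest in muscle genes, Mobp differed by -0.20 (-0.41 to 0.00). The covariate and the groups overlap in these arrays, since 3 of the 4 vehicle arrays were high in muscle genes. The remaining one was vehicle replicate 3, the highest array for Slc1a2, Aqp4 and Mobp, so the larger differences in both settings lean on it. Without vehicle replicate 3, and with no covariate, the differences were -0.18 for Slc1a2, -0.16 for Aqp4 and 0.01 for Mobp. The covariate was not fitted without that array. The part of the muscle signal in these values was not tested beyond this covariate.

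Slc1a2 and Aqp4 followed each other over the 8 arrays. Pearson's r was 0.986 (exact permutation p = 0.000322, adjusted p = 0.00484 over 15 pairs of genes) and Spearman's rho was 0.976 (exact permutation p = 0.000397, adjusted p = 0.00595). Without the 2 arrays farthest from the median of Slc1a2, r was 0.830. Without vehicle replicate 3 alone it was 0.948 (exact permutation p = 0.00258, adjusted p = 0.0387, n = 7). Taken as deviations from the group means, r was 0.975, with an exact permutation p of 0.0226 within groups and an adjusted p of 0.0825.

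The relation of Mobp to the astrocyte genes depended on vehicle replicate 3 and on the removal of the group means. Its r was 0.814 with Slc1a2 and 0.794 with Aqp4 (exact permutation p = 0.0393 and 0.0539, adjusted p = 0.197 and 0.202), but rho was 0.524 and 0.452 (exact permutation p = 0.197 and 0.267, adjusted p = 0.405 and 0.446). Without the 2 arrays farthest from the median of the astrocyte gene, r was 0.06 and -0.27, and without vehicle replicate 3 alone it was 0.21 and 0.06. As deviations from the group means, r was 0.870 and 0.821 (exact permutation p = 0.0260 and 0.109 within groups, adjusted p = 0.0825 and 0.149) and rho was 0.857 and 0.833 (exact permutation p = 0.0191 and 0.0260, adjusted p = 0.0716 and 0.0738). In that setting r without the 2 farthest arrays was 0.709 and 0.465. Among the oligodendrocyte genes Mog, Mobp, Opalin and Olig1, r lay between 0.11 and 0.54, and the lowest adjusted p was 0.335 (exact permutation tests). The highest rho was that of Mog and Olig1 (0.714, exact permutation p = 0.0576, adjusted p = 0.405). As deviations from the group means, r was 0.855 for Mog and Opalin (exact permutation p = 0.0469, adjusted p = 0.100) and 0.763 for Opalin and Olig1 (exact permutation p = 0.0330, adjusted p = 0.0825).

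Windows of 250 bases before a transcription start of the RefSeq promoter table are shown for Slc1a2 and Mobp, both high in vehicle replicate 3, and for Opalin, which was not. For Mobp and Opalin the RefSeq gene begins upstream of that start, so that their windows lie partly inside the annotated gene. The sequences are of the rat assembly GRCr8, read 5′ to 3′ on the strand of the gene, at chr3:109459859-109460108 on the plus strand, chr8:128746982-128747231 on the plus strand and chr1:249858191-249858440 on the minus strand. Capitals mark ACAAAG or its reverse complement CTTTGT, a short motif of the kind that Sox transcription factors bind, chosen after the sequences had been seen.
Slc1a2: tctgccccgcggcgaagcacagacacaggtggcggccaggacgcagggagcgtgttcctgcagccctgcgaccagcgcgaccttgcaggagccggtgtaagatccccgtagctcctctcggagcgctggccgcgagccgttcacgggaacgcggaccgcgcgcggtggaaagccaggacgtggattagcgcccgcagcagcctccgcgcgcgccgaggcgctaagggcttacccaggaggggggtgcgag
Mobp: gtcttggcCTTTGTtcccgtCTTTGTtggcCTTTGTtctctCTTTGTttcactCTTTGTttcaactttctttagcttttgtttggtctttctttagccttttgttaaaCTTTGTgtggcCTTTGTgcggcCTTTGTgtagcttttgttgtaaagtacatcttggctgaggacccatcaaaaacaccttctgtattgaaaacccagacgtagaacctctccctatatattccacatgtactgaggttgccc
Opalin: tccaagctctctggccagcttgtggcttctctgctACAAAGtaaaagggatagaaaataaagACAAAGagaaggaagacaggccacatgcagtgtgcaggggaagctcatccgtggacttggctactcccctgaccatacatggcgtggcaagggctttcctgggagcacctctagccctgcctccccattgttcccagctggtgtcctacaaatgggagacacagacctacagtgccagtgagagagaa
The Mobp window held 8 matches on both strands together, the Opalin window 2 and the Slc1a2 window 0. Over 33469 such windows of the rat genome 16.3% held at least 1 match, 1.84% at least 2 and 0.00598% at least 8. All 8 matches in Mobp read CTTTGT. The general motif of basic helix-loop-helix factors such as Olig1, CANNTG, was found 1 time in this window of Slc1a2, 1 time in Mobp and 3 times in Opalin, and 65.5% of all windows held it. A second Slc1a2 window held it 3 times (at least as many in 11.5% of windows) and no ACAAAG. Of 2 Aqp4 windows, not printed, 1 held CANNTG 5 times (0.923% of windows) and no ACAAAG, and the other held each motif 1 time. Sequences were found for 4 of the 6 measured genes, and those of Mog and Olig1 were not in the table used here. A match describes the letters of the window and is no evidence of binding.

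Further genes of astrocytes and oligodendrocytes were compared from lists of 12 marker groups. On 4 lists of central or shared glial genes, 42 genes were measured, of which 0 passed an adjusted or an unadjusted p of 0.05 by limma. Of these 42, 4 were highest in vehicle replicate 3 (9.52%), against 9.72% of all probe sets. The 42 include the 9 shared myelin genes, which cannot mark central tissue.

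Of 16 further astrocyte genes 10 were lower and 6 higher in HDACI, with a median difference of -0.03 (log2), beside 0.01 for all probe sets. The 4 with the smallest p were the connexins Gja1 (0.42 ± 0.19, SE) and Gjb6 (0.46 ± 0.32), the folate enzyme Aldh1l1 (-0.10 ± 0.06) and the acyl-CoA synthetase Acsbg1 (-0.17 ± 0.10). Both connexins had the opposite sign to Slc1a2 and Aqp4. Gjb6 was lowest in vehicle replicate 2 (6.87) and HDACI replicate 3 (6.9), the arrays lowest in the mean of meningeal genes (-0.49 and -0.62). Which cells the connexins mark in these samples was not tested. Gfap, the intermediate filament of astrocytes, measured 10.15 in vehicle replicate 3, within the range of 9.85 to 10.43 over all arrays. With values this high in every array, Gfap cannot be read as a mark of attached central tissue. The glutamate transporter Slc1a3, which satellite glia also carry, measured 8.62 there, within a range of 8.30 to 8.78. The sodium bicarbonate cotransporter Slc4a4 was highest in vehicle replicate 3, at 10.89 against 10.69 in the next array, and Fam107a was highest there by 0.03. With a lowest value of 10.48, in HDACI replicate 3, Slc4a4 cannot be read as a mark of attached central tissue either. Gfap, Slc1a3, Slc4a4 and Fam107a, like Hapln2, were named after their values had been seen.

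Of 11 further oligodendrocyte genes, listed as not typical of Schwann cells, 8 were lower and 3 higher in HDACI, with a median of -0.03. Bcas1, Tspan2, Aspa and Cldn11 on this list measured above 9.7 in every array, so they cannot be read as marks of central tissue here. Bcas1, Tspan2 and Aspa were named after their values had been seen. Ermn, a cytoskeletal protein of myelinating oligodendrocytes, was highest in vehicle replicate 3, at 7.14 against 7.03 in the next array. Hapln2, a link protein of the nodes of Ranvier in central axons, was also highest there, at 7.88 against 7.86 in HDACI replicate 2. The protease gene Klk6 differed by 0.12 ± 0.07 between the groups, the homeobox gene Nkx6-2 by 0.09 ± 0.06, Ermn by -0.12 ± 0.09 and the tight junction gene Cldn11, which meninges also use, by 0.26 ± 0.22 (SE). Among 6 genes of oligodendrocyte precursors 3 were lower and 3 higher. Ptprz1, a receptor phosphatase, differed by -0.10 ± 0.05 and its groups did not overlap. This held for 1 of the 42 genes of the 4 lists, against 2.1% of all probe sets in either direction. Cspg4 and Pdgfra, which pericytes and fibroblasts also use, differed by 0.15 ± 0.07 and 0.19 ± 0.16, and C1ql1 by -0.05 ± 0.04.

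Myelin genes that Schwann cells share with oligodendrocytes followed another order of arrays. The mean of 9 such genes was highest in HDACI replicates 1 and 2 (0.18 and 0.14, log2, relative to all arrays), lowest in HDACI replicate 4 (-0.32), and -0.05 in vehicle replicate 3. Of the 9, 0 were highest in vehicle replicate 3. The gap junction gene Gjb1 differed by -0.07 ± 0.12, and the lipid enzymes Fa2h and Ugt8 by -0.06 ± 0.13 and -0.05 ± 0.12, and Cnp by 0.02 ± 0.07 (SE). Schwann cell myelin genes were also high in HDACI replicates 1 and 2 and lowest in HDACI replicate 4, with 0.17 and 0.18 in HDACI replicates 1 and 2, -0.21 in HDACI replicate 4 and -0.05 in vehicle replicate 3 over 8 genes. Of these, Gldn differed by 0.19 ± 0.09 and Pmp2 by 0.13 ± 0.13. HDACI replicate 4, the lowest array for Slc1a2, Aqp4 and Olig1, was thus also the lowest for the shared myelin and Schwann cell lists, and its part in the differences of those genes was not tested beyond leaving it out.

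The other cell types of cord, root and ganglion were read in the same array. The mean of 11 spinal cord neuron genes lay at 0.04 there, within the range of the other arrays (-0.07 to 0.07), and 1 of the 11, the zinc finger gene Zic1, was highest there (9.89). Zic1 was lowest in HDACI replicate 3 (9.11), the array also lowest in meningeal genes, and which cells it marks in these samples was not tested. Pax2 and Gad1 differed between the groups by 0.08 ± 0.07 and -0.05 ± 0.04 (SE). The inhibitory synthesis genes Gad1 (7.25) and Gad2 (6.02) and the vesicular transporter Slc32a1 (6.82) lay within the range of the other arrays in vehicle replicate 3, and Gad2, Slc32a1, Zic1, Prph and Pmp22 were likewise named after their values had been seen. The means of 5 ependymal genes (-0.04) and 6 microglia genes (-0.01) were also within the range of the other arrays. Of the ependymal genes Enkur differed by 0.14 ± 0.06, with an interval from 0.00 to 0.28, and of the microglia genes Tmem119 by 0.15 ± 0.17. The mean of 10 meningeal genes was 0.14 in vehicle replicate 3, within a range of -0.62 to 0.40. Satellite glia genes lay at -0.04 in that array. Between the groups, 3 of 5 satellite glia genes, 6 of 11 spinal cord neuron genes, 4 of 5 ependymal genes, 2 of 6 microglia genes, 2 of 15 sensory neuron genes and 9 of 10 meningeal genes were higher in HDACI, and 0 of them passed adjustment. All 10 muscle genes were lower in HDACI at an unadjusted p under 0.05 by limma, against 1.93% of all probe sets in that direction. Their median difference was -1.90, and 0 passed adjustment. The part of attached root or cord tissue in its high values of Slc1a2, Aqp4 and Mobp was not tested.

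**Figure D4:**
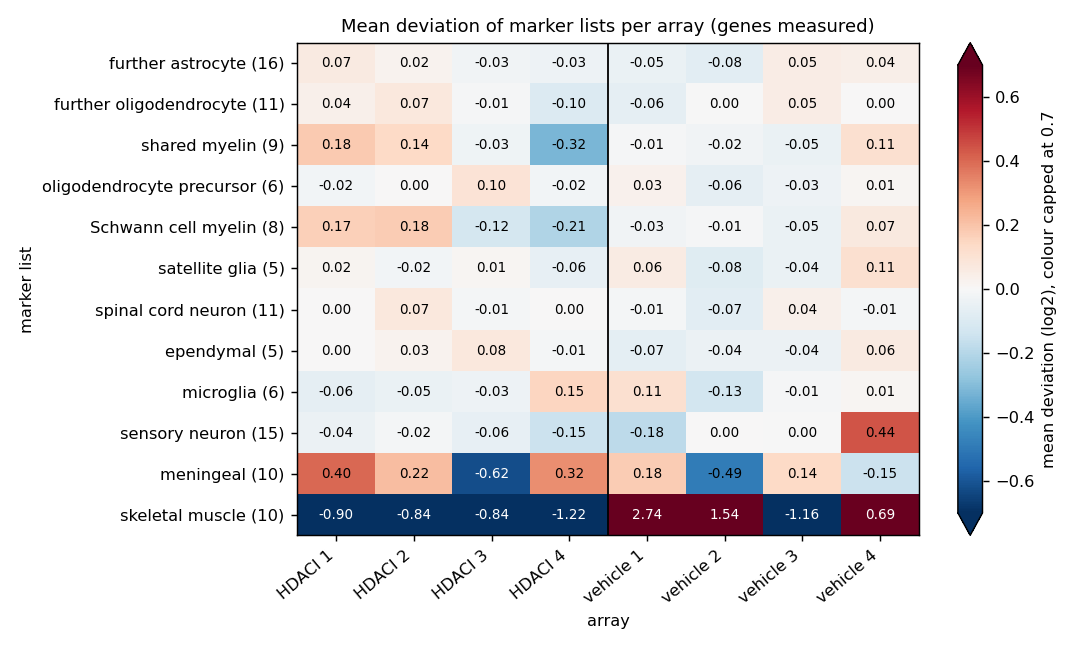
Each cell gives the mean deviation of a marker list (rows, with the number of genes measured) in 1 array (columns) from the mean of the 8 arrays, in log2 units, with colours capped at 0.7. Vehicle replicate 3 lies at 0.05 for further astrocyte and for further oligodendrocyte genes, while the largest deviations are those of skeletal muscle genes (2.74 in vehicle replicate 1) and meningeal genes (-0.62 in HDACI replicate 3).

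For each member the 3 genes whose pattern over the 8 arrays was most like its own were sought. Of 14496 other named genes, Aqp4 was the one most like Slc1a2, and Slc1a2 the one most like Aqp4. After it came the kinase gene Cdk8 (r = 0.977 with Slc1a2, 0.951 with Aqp4) and Tent5d (r = 0.972 and 0.956). Most like Mobp were Veph1 (r = 0.942), the sodium leak channel Nalcn (0.938) and the taste receptor Tas2r121 (0.916), and most like Mog were the adrenergic receptor Adrb3 (0.965), the guanylate cyclase subunit Gucy1a2 (0.950) and Plpp2 (0.950). All of these were highest in vehicle replicate 3. Most like Opalin were Zbtb8a (0.951), Slc16a10 (0.940) and Arsi (0.928), and most like Olig1 were Dlec1 (0.985), Lrrc4 (0.981) and Pipox (0.981). The last 3 were highest in HDACI replicate 3. These values of r are over 8 points that share arrays and normalization, and are given as a description of genes picked as the most alike.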

How the data were processed

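The deposited table holds log2 values that the authors made by RMA (Bioconductor package oligo), which subtracts background, quantile-normalizes between arrays and summarizes each probe set. No tool version was named in the sources used here. Quantile normalization left array medians between 8.13 and 8.16, and RMA compresses differences of dim probe sets. Arrays have no read depth, and their number limits precision.

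Gene names came from the platform annotation, updated through RefSeq (assembly GRCr8). Of 28826 probe sets, 15209 carried 1 symbol, 306 several and 13311 none. Differences between HDACI and vehicle were fitted over all probe sets in R 4.3.3 by limma 3.58.1 (a linear model with moderated variances, two-sided), and p-values were adjusted after Benjamini and Hochberg. The fit was tested on simulated data. Correlations were tested two-sided over all 40320 pairings of the arrays, or over all orders within groups. At most 0.0486% of probe sets had equal values in any pair of arrays. Of 137 genes on the lists, 112 had a probe set. Genes named were all members, the genes with the smallest p on each list (at most 4 for a glial list, otherwise at most 2) and the 3 genes most like each member, unless the text says otherwise. The members and lists were chosen with earlier results of these data known. Alternatives were the replicate number as a block, leaving out arrays, a muscle covariate, filters on probe sets, other scalings, a trended robust variance and array weights.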

Additional observations from a re-analysis of the deposited data

Results flagged for a closer look

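In 3 of 12 groups of 4 arrays, 1 array lay far from the rest by Dixon's gap test, which by chance marks about 1 in 20 groups. Over all probe sets it marked 5.70% of HDACI groups and 5.79% of vehicle groups. In vehicle, replicate 3 was far above the others for Slc1a2 (7.66, a gap of 0.841 of the range of the group) and for Aqp4 (7.88, a gap of 0.959). Vehicle replicate 1 was far below the others for Olig1 (6.19, a gap of 0.869). Slc1a2 and Aqp4 marked the same array and followed each other over the 8 arrays (r = 0.986). The 12 groups are therefore not independent, and the count of 3 is no test of an excess.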

How the results depend on the processing

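Of the alternative values for differences of the members, 97 kept their sign and their side of an adjusted p of 0.05 and 2 reversed, and no alternative gave an adjusted p under 0.05 (0.701 to 1.0). The unadjusted p rose past 0.05 for Aqp4 without HDACI replicate 1, HDACI replicate 4 or vehicle replicate 3 and for Slc1a2 without HDACI replicate 4, and fell under it for Mobp with the muscle covariate. With 1 array left out, differences ranged from -0.34 to -0.18 for Slc1a2, -0.31 to -0.16 for Aqp4, -0.07 to -0.01 for Mog, 0.06 to 0.10 for Opalin, -0.15 to 0.0075 for Mobp (reversed without vehicle replicate 3) and -0.15 to 0.051 for Olig1 (reversed without HDACI replicate 4). The median of further oligodendrocyte genes ranged from -0.047 to 0.047, that of precursor genes from -0.080 to 0.040, that of further astrocyte genes from -0.068 (without vehicle replicate 1) to 0.0029 (without vehicle replicate 4), and that of muscle genes from -2.59 (without vehicle replicate 3) to -1.30 (without vehicle replicate 1). Other list medians stayed within the pooled SD of their arrays, and several near 0 changed sign. The count at an unadjusted p under 0.05 (1022) ranged from 708 to 1758, and was 567 over probe sets with 1 symbol and 2045 with array weights. The count under 0.01 (160) ranged from 102 to 287, and was 106 without dim probe sets, 78 over probe sets with 1 symbol and 372 with array weights. The cause was not tested, except that 2 of these settings test fewer probe sets.

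As deviations from group means, r was 0.975 for Slc1a2 and Aqp4 (no longer past the threshold) and turned positive for Opalin with Slc1a2 (0.756) and with Aqp4 (0.830). Without vehicle replicate 3, chosen after seeing the data, r was -0.063 for Mog and Mobp and -0.032 for Mobp and Olig1. Same-numbered samples did not deviate together (correlations of -0.04, 0.01, 0.01 and -0.28), so the numbers were not read as pairs. With the replicate block Slc1a2 differed by -0.29 ± 0.08 (SE) and 803 probe sets had an unadjusted p under 0.05. It changed no call. No gene of the set had a further probe set, so that alternative gave no value, and Mobp, Opalin and Olig1 fell under the filter on dim probe sets.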
